A study of Mus musculus with 2 samples.

Results

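The 6 genes *Rgs2*, *Rgs3*, *Rgs4*, *Rgs5*, *Rgs10* and *Rgs16* of the family of regulators of G-protein signalling (RGS) were followed in tdTomato+ cells sorted from adult mouse skeletal muscle, with each gene taken by its symbol from the 28001 features that both count matrices list. The 2 single-cell RNA-seq libraries came from C57BL/6J mice labelled Hic1CreERT2/CreERT2;Rosa26LSLtdTomato/tdTomato, in which tamoxifen activates a Cre recombinase made under control of *Hic1* and so turns on the tdTomato reporter for good. In E10-P56, pregnant dams were gavaged with 7.5 mg tamoxifen at embryonic day 10 and the muscle was collected from the offspring at postnatal day 56. In the adult pulse, mice received 5 daily injections of 2.5 mg at 8 weeks. The labels give postnatal day 56 for both collections, whereas the study's text places that of the adult pulse later. According to the methods, tibialis anterior muscles of 2 hindlimbs were pooled, and sorting restricts both libraries to cells that are, or descend from, cells with an active *Hic1* locus at the time of labelling. Each labelling scheme has 1 library, so no difference below has a replicate check. No p-value is given, and 95% intervals cover counting error only, not variation between cells or animals.

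RGS proteins speed the hydrolysis of GTP by the alpha subunit of heterotrimeric G proteins and thereby shorten signals from G-protein-coupled receptors. *Rgs2*, *Rgs3*, *Rgs4*, *Rgs5* and *Rgs16* belong to the same subfamily, and *Rgs10* to another. Mural cells, the pericytes of capillaries and the smooth muscle cells of larger vessels, set vessel tone through such receptors, and *Rgs5* is widely used as a mural cell marker.

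E10-P56 held 8236 barcodes and the adult pulse 9195, of which 6087 and 8567 had at least 1500 UMIs (unique molecular identifiers, each standing for 1 captured transcript) and at most 10% mitochondrial UMIs. The libraries shared 15 barcode sequences. Cells were assigned by marker genes that include no RGS gene. In E10-P56 the gates held 360 pericytes, 158 progenitor-like mural cells (mural markers with *Dlk1* or *Adra2a*), 138 smooth muscle cells, 208 tenocytes and 3877 fibroblasts. The adult pulse gates held 340, 48, 11, 492 and 6750 cells. Perineurial cells, of the sheath around nerves, and endothelial cells were taken from the remaining cells by at least 4 of 6 markers each, 136 and 13 cells in E10-P56 and 34 and 46 in the adult pulse, and are given where they bear on the order of levels. The defining markers followed the gates: *Kcnj8*, a subunit of an ATP-sensitive potassium channel, was at 1818 CPM (UMIs of the gene per 1000000 UMIs of the population) in E10-P56 pericytes against 3.33 in smooth muscle cells and 12.3 in fibroblasts, and *Scx*, a tendon transcription factor, was at 6764 in tenocytes against 6.07 in fibroblasts. In adult tenocytes *Scx* was at 877 against 0.898. The 2 smallest groups were the least certain, since 60.4% of the adult progenitor-like cells and 54.5% of the adult smooth muscle cells had only the minimum number of their own markers. The study saw vascular smooth muscle cells only with labelling at E10. In the 11 adult smooth muscle cells, the smooth muscle markers *Cnn1*, *Smtn* and *Myh11* were at 107, 253 and 2413 CPM. Their E10-P56 levels were 490, 586 and 6519 CPM. The mitochondrial limit removed 318 of 456 smooth muscle cells in E10-P56, or 69.7%, so their values are given on both sides of it. Above the limit *Rgs16* had 0 UMIs, *Rgs3* was at 13.6 CPM (8.825 to 20.1) and *Rgs10* at 1.64 (0.337 to 4.78). The other 3 genes are given below.

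Of the 6 genes, 4 lie on chromosome 1 of GRCm38. *Rgs5* (ENSMUSG00000026678, plus strand, 169655501 to 169695813) and *Rgs4* (ENSMUSG00000038530, minus strand, 169741477 to 169747642) are neighbours 45663 bases apart with 0 protein-coding genes between them. *Rgs16* (ENSMUSG00000026475) spans 153740349 to 153745468 on the plus strand and *Rgs2* (ENSMUSG00000026360) 143999338 to 144004161 on the minus strand. *Rgs3* (ENSMUSG00000059810) lies on chromosome 4 from 62559847 to 62704001 and *Rgs10* (ENSMUSG00000030844) on chromosome 7 from 128373621 to 128418758. *Rgs3* and *Rgs16* each overlap an annotated antisense gene, and whether the counting used strand is not given in the sources used here.

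The 250 bases before the start sites of the neighbours *Rgs5* and *Rgs4*, which were both highest in pericytes, and of *Rgs2* and *Rgs16*, which were not, are shown 5′ to 3′ on the strand of each gene, from RefSeq on GRCm38.p6, whose starts can differ by a few bases from the gene bounds above. Capitals mark the letters CGTCA, the core of a cyclic AMP response element half-site, and TATAAA, searched on both strands.
Rgs5, chr1:169655251-169655500, plus strand: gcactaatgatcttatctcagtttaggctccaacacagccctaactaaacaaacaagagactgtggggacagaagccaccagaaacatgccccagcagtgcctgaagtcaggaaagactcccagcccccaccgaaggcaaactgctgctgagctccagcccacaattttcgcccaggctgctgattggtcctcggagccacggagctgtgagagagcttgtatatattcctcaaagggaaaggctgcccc
Rgs4, chr1:169747643-169747892, minus strand: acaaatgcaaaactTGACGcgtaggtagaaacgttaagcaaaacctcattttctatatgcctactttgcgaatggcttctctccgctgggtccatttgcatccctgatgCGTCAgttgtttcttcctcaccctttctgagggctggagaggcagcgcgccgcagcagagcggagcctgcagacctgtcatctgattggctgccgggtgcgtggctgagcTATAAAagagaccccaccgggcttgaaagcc
Rgs2, chr1:144004150-144004399, minus strand: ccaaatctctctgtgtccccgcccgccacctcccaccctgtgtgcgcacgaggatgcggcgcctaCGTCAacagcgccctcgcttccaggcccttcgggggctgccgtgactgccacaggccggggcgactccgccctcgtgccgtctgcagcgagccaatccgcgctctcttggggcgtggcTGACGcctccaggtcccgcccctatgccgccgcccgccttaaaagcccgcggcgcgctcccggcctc
Rgs16, chr1:153740103-153740352, plus strand: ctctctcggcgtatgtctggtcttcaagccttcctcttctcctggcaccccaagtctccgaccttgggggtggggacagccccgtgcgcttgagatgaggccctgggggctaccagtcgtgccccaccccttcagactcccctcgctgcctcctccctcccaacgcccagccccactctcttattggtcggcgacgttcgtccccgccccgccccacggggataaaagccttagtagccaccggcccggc
CGTCA was present 2 times each before *Rgs4* and *Rgs2* and 0 times before *Rgs5* and *Rgs16*, against 17.8% of 32851 promoters with it. TATAAA began 31 bases before the start of *Rgs4* and was found in 12.4% of promoters. It also began 100 and 177 bases before separate start sites of *Rgs3*, whose sequences are not shown. The CArG box, a motif of smooth muscle genes, was in 1.47% of promoters and in 0 of the 7 promoters of the 6 genes. A match describes letters only, and binding was not measured.

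*Rgs5*, which acts on Gi and Gq proteins, was by far the most counted of the 6 genes in pericytes and progenitor-like cells. In E10-P56 its level was 13984 CPM (13777 to 14194) in pericytes, 7497.5 (7369 to 7628) in progenitor-like cells, 1597 (1526 to 1670) in smooth muscle cells, 29.4 (20.1 to 41.55) in tenocytes and 16.6 (15.4 to 17.9) in fibroblasts. The adult pulse had the same populations at 12094 (11893 to 12298), 8735 (8391 to 9089), 4227 (3774 to 4719), 6.90 (4.42 to 10.3) and 7.83 (7.12 to 8.59). The order of the 3 mural populations was the same in both libraries and their intervals did not overlap, while tenocytes and fibroblasts of the adult pulse overlapped. The adult place of smooth muscle rests on 11 cells of uncertain type. Adult endothelial cells lay between the mural populations and tenocytes, at 208 CPM (141 to 295) from 13 of 46 cells. Pericytes exceeded fibroblasts 840-fold (780 to 907) and 1544-fold (1405 to 1701), E10-P56 first. These intervals do not cover the choice of cells: the log2 ratios, 9.34 and 9.88 with 5 CPM added, were 8.30 and 9.05 when cells were thinned to 1500 UMIs before gating and 8.53 and 9.01 in clusters. The study names *Rgs5* as a pericyte gene from these samples, so its rank is no independent support.

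**Figure D1:**
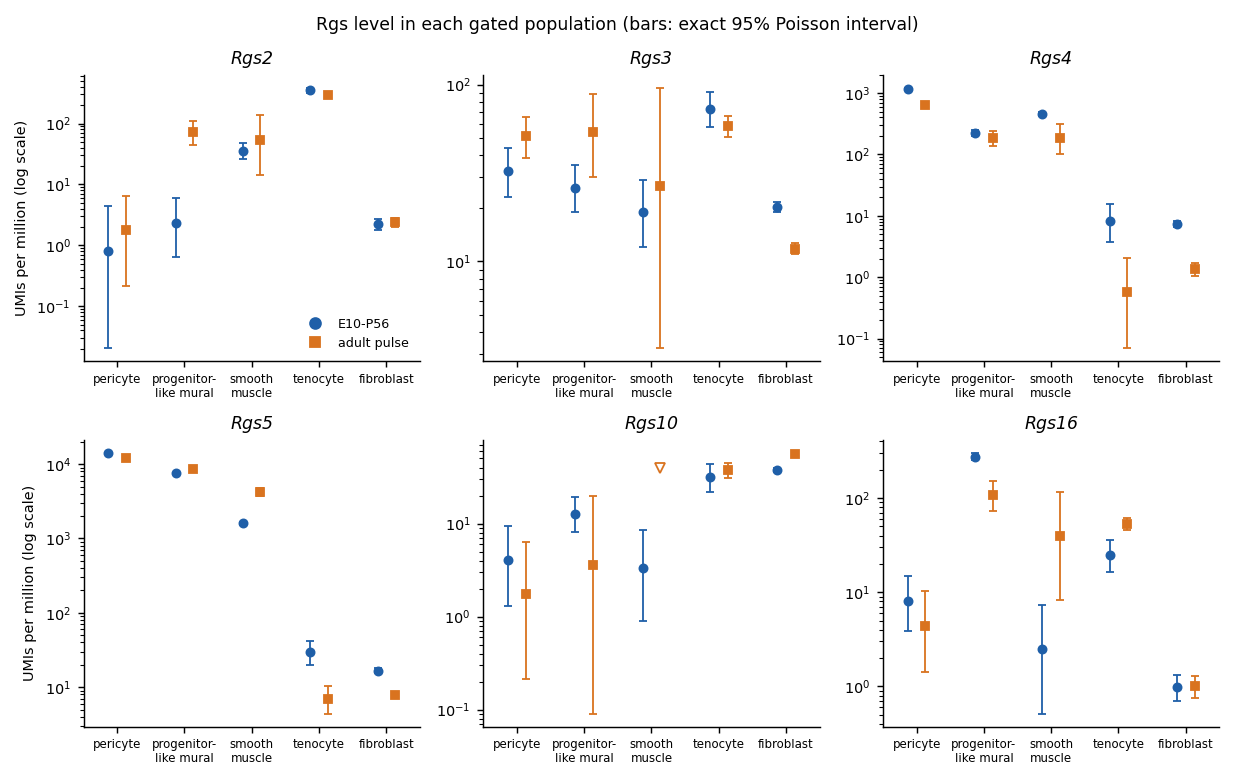
Level of each gene in CPM (log axis) in the 5 gated populations of E10-P56 (circles) and the adult pulse (squares), with exact 95% Poisson intervals; an open triangle marks the level that 3 counts would give where 0 UMIs were counted. Among these 5, *Rgs5* and *Rgs4* are highest in pericytes, *Rgs16* in progenitor-like cells and *Rgs2* in tenocytes, in both libraries. *Rgs10* is highest by value in fibroblasts, though in E10-P56 its interval there overlaps that in tenocytes.

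Detection of *Rgs5* was near complete in the first 2 mural populations. With each cell thinned to 1500 UMIs, 360 of 360 pericytes in E10-P56 (100%, 99.0 to 100) and 335 of 340 in the adult pulse (98.5%, 96.6 to 99.5) had a UMI, as did 98.7% and 97.9% of progenitor-like cells. The share was 3.40% in E10-P56 fibroblasts and 1.16% in adult fibroblasts, which serve here as the background (14.3% and 5.05% before thinning, at median depths of 9022 and 7802 UMIs against 3171.5 and 3202.5 in pericytes).

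Smooth muscle cells were divided in *Rgs5*. In E10-P56, 73 of 138 had a UMI before thinning, the median cell was at 80.9 CPM and the 90th percentile at 6312, and the 10% of cells with the most held 62.8% of the UMIs, against 22.9% in pericytes. Among the 318 cells above the mitochondrial limit the level was 628 CPM (592 to 665), and 105 of them had a UMI. The 138 cells held 19 UMIs of *Kcnj8* and *Abcc9* together beside 1918 of *Rgs5*, or 101 *Rgs5* UMIs per UMI of that pair against 3.59 in pericytes, although the gate itself limits pericyte markers in these cells. This level also depended on the gate: it was 587 CPM under stricter marker limits, 508 when cells were thinned before gating, 2370 in the smooth muscle cluster and 2743 in the 62 cells without a UMI of the early response genes *Fos*, *Fosb*, *Egr1* or *Atf3* at 1500 UMIs. Of 11 adult smooth muscle cells, 10 had a UMI.

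**Figure D2:**
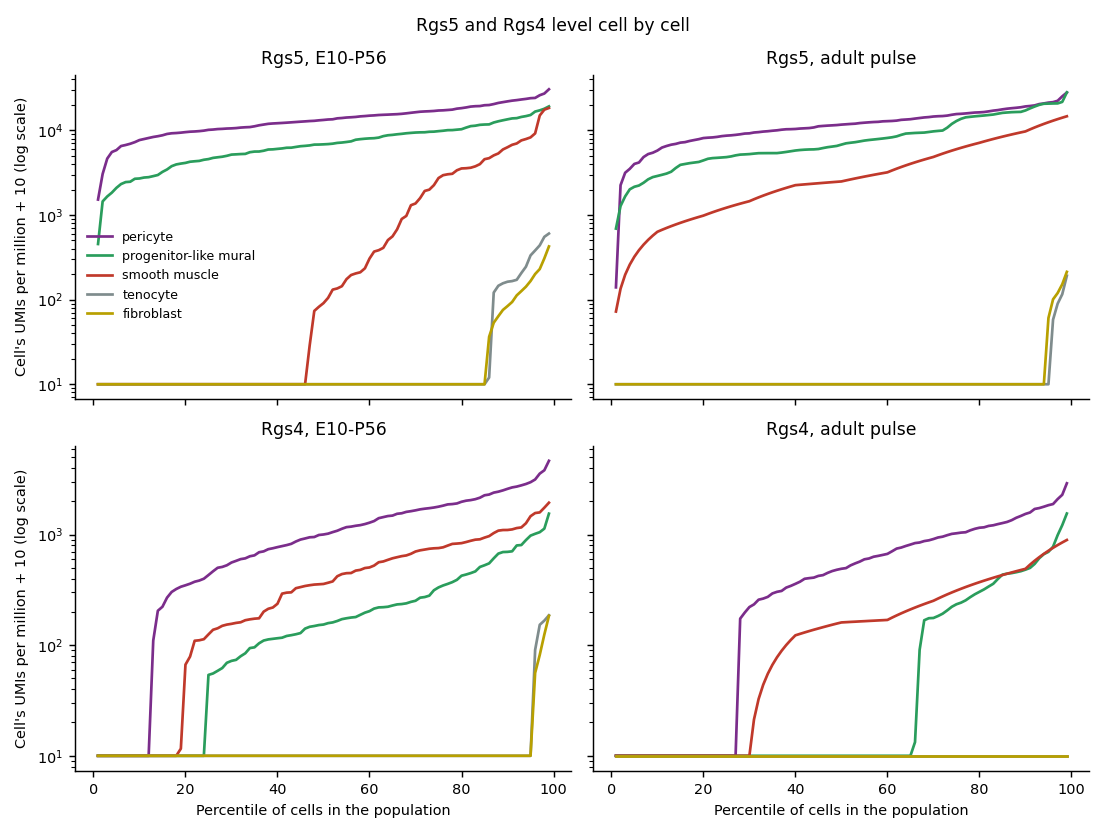
Each cell's *Rgs5* (top) and *Rgs4* (bottom) level in CPM, with 10 added (log axis), by percentile of cells in each population, for E10-P56 (left) and the adult pulse (right). The pericyte line lies highest for both genes over most percentiles, and *Rgs5* in E10-P56 smooth muscle cells rises from 0 at low percentiles to 6312 at the 90th.

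*Rgs4*, which acts on Gi and Gq proteins and is best known from brain and heart, shared the mural pattern of its neighbour with another order. In E10-P56 it was at 1167 CPM (1107.5 to 1229) in pericytes, 460 (422 to 500) in smooth muscle cells, 224 (202 to 247) in progenitor-like cells, 8.28 (3.79 to 15.7) in tenocytes and 7.48 (6.69 to 8.35) in fibroblasts. The adult pulse levels were 647 (601 to 695), 187 (102 to 313), 187 (140 to 245), 0.575 (0.0696 to 2.08) and 1.34 (1.05 to 1.67). Pericytes led in both libraries, and smooth muscle cells exceeded progenitor-like cells 2.05-fold (1.80 to 2.35) in E10-P56. That ratio was 0.999 (0.512 to 1.83) in the adult pulse. After thinning, 71.1% (66.1 to 75.7) of E10-P56 pericytes and 52.9% (47.5 to 58.4) of adult pericytes had an *Rgs4* UMI, against 0.774% and 0.178% of fibroblasts (86.9% and 72.4% of pericytes and 4.98% and 0.696% of fibroblasts before thinning). All 256 and 180 of these pericytes also had an *Rgs5* UMI. So did 100% and 96.9% of the pericytes without an *Rgs4* UMI, so this overlap cannot show whether the 2 genes go together.

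Because both genes were counted in the same cells, their proportion can be compared between populations. *Rgs4* made up 7.70% (7.32 to 8.09) of the UMIs of the pair in E10-P56 pericytes, 2.90% (2.62 to 3.20) in progenitor-like cells and 22.3% (20.7 to 24.0) in smooth muscle cells. It made up 42.2% (40.0 to 44.4) in the smooth muscle cells above the mitochondrial limit, where *Rgs4* stayed at 458 CPM (428 to 490). The adult pulse proportions were 5.08% (4.72 to 5.45), 2.09% (1.57 to 2.74) and 4.23% (2.33 to 6.99). Progenitor-like cells were lowest in each library, though in the adult pulse their interval overlapped that of the 11 smooth muscle cells. With no mitochondrial limit, adult smooth muscle cells numbered 15 and *Rgs4* was at 428 CPM in place of 187, with 27 UMIs in the 4 added cells, 19 of them in 1 cell.

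**Figure D3:**
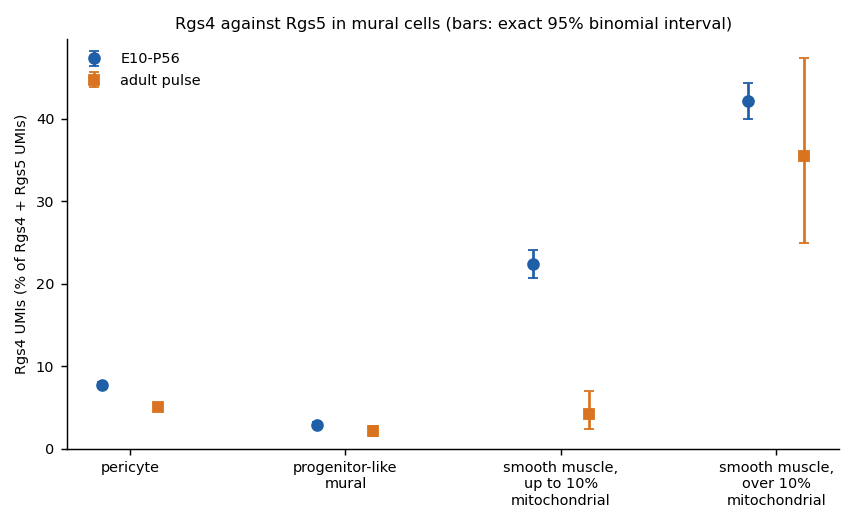
*Rgs4* UMIs as a percentage of *Rgs4* and *Rgs5* UMIs together in mural populations of E10-P56 (circles) and the adult pulse (squares), with exact 95% binomial intervals. The proportion is 2.90% in E10-P56 progenitor-like cells and 42.2% in E10-P56 smooth muscle cells over 10% mitochondrial UMIs; the adult point in that last class rests on 4 cells.

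*Rgs16*, a regulator of Gi and Gq proteins whose transcript is induced by many stimuli, was highest in the progenitor-like cells among the 5 gated populations. In E10-P56 it was at 277 CPM (252 to 303) there, 24.8 (16.4 to 36.1) in tenocytes, 8.08 (3.87 to 14.85) in pericytes, 2.50 (0.515 to 7.30) in smooth muscle cells and 0.976 (0.703 to 1.32) in fibroblasts. The adult pulse levels were 108 (72.7 to 154), 53.4 (46.0 to 61.7), 4.39 (1.43 to 10.2), 40.0 (8.25 to 117) and 1.003 (0.760 to 1.30). Progenitor-like cells exceeded pericytes 34.25-fold (18.5 to 71.9) and 24.5-fold (9.42 to 81.0). They exceeded tenocytes 11.1-fold (7.56 to 17.1) in E10-P56 and 2.02-fold (1.32 to 2.98) in the adult pulse. When cells were thinned before gating, the 10 adult progenitor-like cells left held 0 UMIs of *Rgs16*, and their log2 ratio to fibroblasts was -0.173 in place of 4.23. Perineurial cells stood above tenocytes in E10-P56, at 109 CPM (86.1 to 136) from 29 of 136 cells. In the adult pulse they were at 60.25 CPM (28.9 to 111) from 10 UMIs in 2 cells, which overlapped the progenitor-like level. The study names *Rgs16* for the progenitor-like cells, from these samples, together with the gate markers *Dlk1* and *Adra2a*.

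*Rgs16* was uneven from cell to cell. After thinning, 20.9% (14.8 to 28.1) of the progenitor-like cells had a UMI in E10-P56, as did 10.4% (3.47 to 22.7) in the adult pulse, against 0.103% and 0.0593% of fibroblasts (49.4% and 22.9% against 0.645% and 0.281% before thinning, at median depths of 9617 and 5197 in the progenitor-like cells). The 10% of E10-P56 progenitor-like cells with the most held 64.7% of its UMIs, and in adult tenocytes 50 of 492 cells held all 186. Its level moved with early response genes, which tissue dissociation can induce. In the 42 E10-P56 and 20 adult progenitor-like cells with no UMI of *Fos*, *Fosb*, *Egr1* or *Atf3* at 1500 UMIs, it was at 150 and 28.2 CPM, from 61 and 3 UMIs, and in the 132 such adult tenocytes at 8.19, from 7 UMIs. *Rgs4* in those 20 adult progenitor-like cells was at 18.8 CPM, from 2 UMIs, against 187 in all 48. E10-P56 tenocytes were at 12.7 for *Rgs16* without such UMIs and at 14.6 under the stricter gate. The part of early response genes in these levels was not tested. *Rgs16* and *Rgs4* UMIs occurred together in 8 of 158 E10-P56 progenitor-like cells, and *Rgs16* was found in 21.1% of cells with an *Rgs4* UMI and 20.8% of those without.

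**Figure D4:**
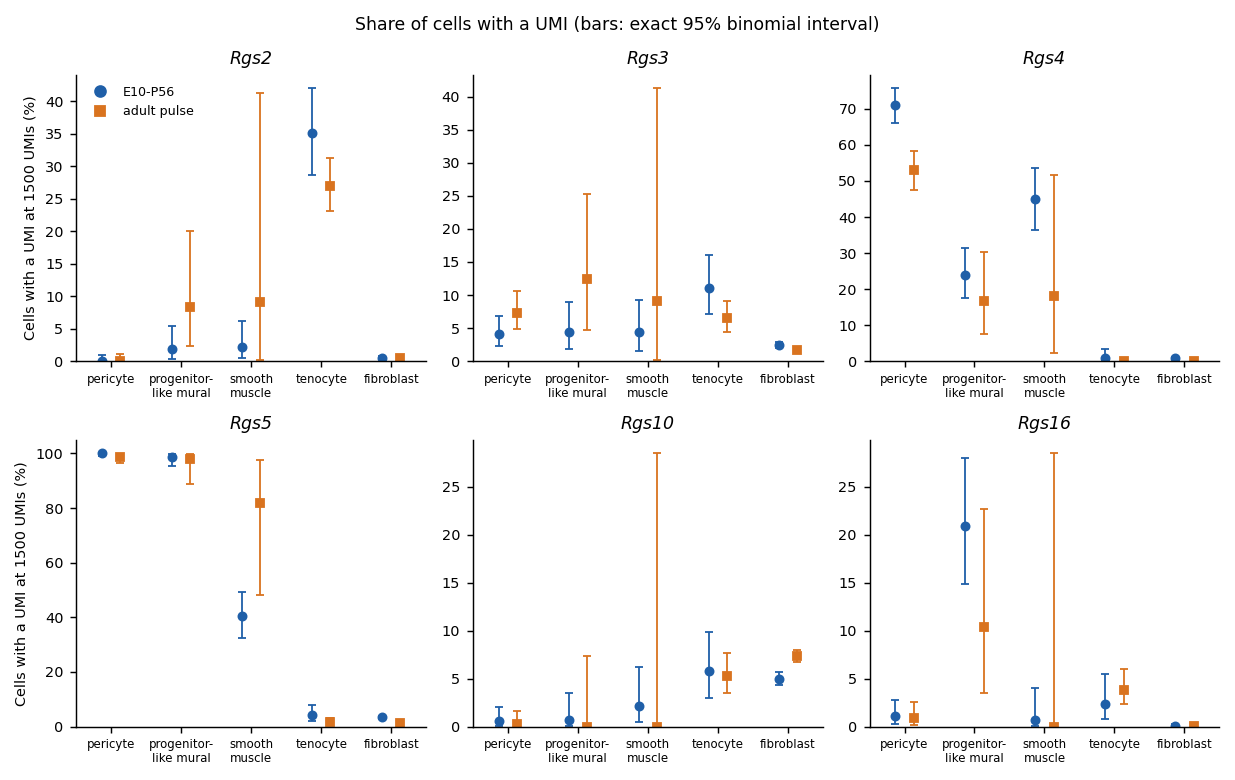
Share of cells with at least 1 UMI of each gene after thinning every cell to 1500 UMIs, in the 5 populations of E10-P56 (circles) and the adult pulse (squares), with exact 95% binomial intervals. *Rgs5* is near 100% in pericytes and progenitor-like cells, *Rgs4* reaches 71.1% in E10-P56 pericytes, and the adult smooth muscle intervals are wide because there are 11 cells.

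*Rgs2*, which acts mainly on Gq and restrains constrictor signals in vascular smooth muscle, was highest outside the mural cells. In E10-P56 it was at 352 CPM (318 to 389) in tenocytes, 35.8 (25.9 to 48.2) in smooth muscle cells, 2.32 (0.633 to 5.95) in progenitor-like cells, 2.23 (1.81 to 2.72) in fibroblasts and 0.808 (0.0205 to 4.5) in pericytes. In the adult pulse the same populations were at 295 (277 to 313), 53.3 (14.5 to 137), 71.8 (43.9 to 111), 2.38 (1.99 to 2.81) and 1.76 (0.213 to 6.35). Pericytes held 1 and 2 UMIs in all, and after thinning 0 of 360 and 0 of 340 had a UMI, which allows shares of cells with a UMI of up to 0.833% and 0.882% as 3 cells of the total, or 1.02% and 1.08% as exact binomial upper limits. Tenocytes exceeded fibroblasts 158-fold (126 to 200) and 124-fold (104 to 149), and 35.1% (28.6 to 42.0) and 27.0% (23.15 to 31.2) of them had a UMI against 0.464% and 0.459% of fibroblasts (47.6% and 57.7% against 1.81% and 1.69% before thinning). Within tenocytes, those with a UMI of *Col22a1*, a collagen of the muscle-tendon junction, were at 504 CPM (422 to 596) against 303 (266 to 343) in E10-P56, and at 386 (355 to 419) against 227 (206 to 249) in the adult pulse. In E10-P56 smooth muscle cells over the mitochondrial limit *Rgs2* was at 36.5 CPM (28.3 to 46.4), and in the 62 smooth muscle cells without an early response UMI at 9.29. Of the 11 adult smooth muscle cells, 0 lacked an early response UMI, so levels of the members without such cells cannot be given there. The cluster of 25 adult smooth muscle cells held 0 UMIs of *Rgs2* and of *Rgs16*. The adult progenitor-like value came from 20 UMIs in 6 of 48 cells, and was 42.5 CPM under the stricter gate, 43.9 in the cluster and 18.8 in cells without an early response UMI.

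*Rgs3*, which exists in long and short forms acting on Gi and Gq, was low in the 5 gated populations and differed less among them than the other members. In E10-P56 it was at 72.7 CPM (57.5 to 90.6) in tenocytes, 32.3 (23.1 to 44.0) in pericytes, 26.2 (19.1 to 35.0) in progenitor-like cells, 20.3 (18.9 to 21.65) in fibroblasts and 19.2 (12.1 to 28.7) in smooth muscle cells. In the adult pulse it was at 58.3 (50.6 to 66.9), 51.0 (38.7 to 65.9), 53.9 (30.15 to 88.9), 11.8 (10.95 to 12.75) and 26.7 (3.23 to 96.3). The highest level was that of tenocytes in E10-P56, whereas tenocytes, pericytes and progenitor-like cells overlapped in the adult pulse. Endothelial cells were higher still by value, at 178 CPM (71.5 to 366) from 7 UMIs in 13 cells and at 127.5 (76.8 to 199) from 19 UMIs in 46 cells. Pericytes exceeded fibroblasts 1.59-fold (1.13 to 2.19) in E10-P56 and 4.31-fold (3.24 to 5.64) in the adult pulse.

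*Rgs10*, a regulator of Gi proteins known for its role in microglia, was by value higher in fibroblasts and tenocytes than in the mural populations, the reverse of *Rgs5*. In E10-P56 it was at 37.2 CPM (35.4 to 39.05) in fibroblasts, 31.3 (21.7 to 43.7) in tenocytes, 12.8 (8.01 to 19.4) in progenitor-like cells, 4.04 (1.31 to 9.42) in pericytes and 3.33 (0.9075 to 8.53) in smooth muscle cells. In the adult pulse it was at 55.5 (53.6 to 57.5), 37.4 (31.2 to 44.4), 3.59 (0.0909 to 20.01) and 1.76 (0.213 to 6.35), with 0 UMIs in smooth muscle cells, where 3 counts would be 40.0 CPM. The E10-P56 intervals of fibroblasts and tenocytes overlapped. Perineurial cells were by value above fibroblasts in E10-P56, at 39.1 CPM (26.0 to 56.5). In the adult pulse they were at 30.1 (9.78 to 70.3), from 5 UMIs. Both intervals overlapped those of fibroblasts. Fibroblasts exceeded pericytes 9.21-fold (3.94 to 28.4) and 31.6-fold (8.74 to 261), although in clusters the adult pericyte level was 9.84 CPM, from 14 UMIs. Among fibroblasts, cells without a UMI of *Pi16*, a marker of adventitial fibroblasts, were higher than cells with it, at 45.7 (43.1 to 48.5) against 26.0 (23.7 to 28.4) CPM in E10-P56 and 72.75 (69.6 to 76.0) against 39.1 (36.9 to 41.5) in the adult pulse. In the same kind of split, cells with a UMI of *Col15a1*, a collagen of parenchymal fibroblasts, were higher than cells without it, at 49.4 (45.5 to 53.5) against 32.45 (30.5 to 34.5) and at 88.5 (84.3 to 92.9) against 39.6 (37.6 to 41.7).

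The counts of members past 2-fold, with 5 CPM added and at least 10 UMIs over both populations, read as follows against all genes. The members were chosen with earlier results of these data known, so a gap to all genes is no independent support. In pericytes against fibroblasts, *Rgs4*, *Rgs5* and *Rgs16* were higher in E10-P56 and *Rgs3*, *Rgs4* and *Rgs5* in the adult pulse, 3 of 6 each, beside 11.2% and 9.38% of all genes tested. The place of *Rgs16* among these rests on 10 UMIs in 4 of 360 E10-P56 pericytes, 6 of them in 1 cell. Its log2 ratio there was 1.13, just past 2-fold, whereas adult pericytes fell short of 2-fold at 0.646. *Rgs10* alone was lower in pericytes, 1 of 6 in each library, beside 9.11% and 8.53%. In progenitor-like cells 3 of 6 were higher in E10-P56 (*Rgs4*, *Rgs5*, *Rgs16*) beside 6.64% and 5 of 6 in the adult pulse beside 9.7%, with *Rgs10* lower in both, beside 7.32% and 9.12%. In E10-P56 smooth muscle cells *Rgs2*, *Rgs4* and *Rgs5* were higher beside 9.11%, and *Rgs10* lower beside 11%. In tenocytes *Rgs2*, *Rgs3* and *Rgs16* were higher in both libraries, beside 6.54% and 4.53%.

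Between the libraries, labelling time, animals, the day of collection, sorting, Cell Ranger version and possibly chemistry cannot be told apart. The labels name 3′ version 2 or 3 for both without saying which library had which. The study's methods name version 3 for muscle collected at postnatal day 56, as in E10-P56. The version of the adult pulse is not stated there. In pericytes 0 of the 4 members with enough UMIs passed 2-fold, beside 3.95% of genes, and *Rgs4* was 1.80-fold (1.65 to 1.975) higher in E10-P56 while *Rgs5* was 1.16-fold (1.13 to 1.18) higher. In tenocytes *Rgs4* and *Rgs5* passed, 2 of 6 beside 6.67%, both higher in E10-P56, where they were at 8.28 and 29.4 CPM against 0.575 and 6.90. Fibroblasts differed the same way, with *Rgs4* 5.59-fold (4.345 to 7.28) and *Rgs5* 2.125-fold (1.885 to 2.40) higher in E10-P56. Per UMI of *Kcnj8* and *Abcc9*, fibroblasts held 0.611 and 0.664 *Rgs5* UMIs against 3.59 and 2.51 in pericytes, and the part of free RNA in these low levels was not tested. In progenitor-like cells *Rgs16* was 2.57-fold (1.775 to 3.85) higher in E10-P56, and *Rgs2* 30.9-fold (10.35 to 124) higher in the adult pulse. The *Rgs2* fold rests on 20 UMIs in 6 of 48 adult cells against 4 UMIs in E10-P56. Of those adult cells, 60.4% had only the minimum number of their own markers.

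Other genes of the pathway and of related signalling were counted in pericytes against fibroblasts, from lists chosen with earlier results of these data known. A gap between such a list and all genes is therefore no independent support. Over all genes tested, 11.2% and 9.38% were higher and 9.11% and 8.53% lower, with median log2 ratios of 0.14 and 0.13. A list of 17 further genes holds RGS genes and the genes of the RGS-binding proteins *Rgs7bp* and *Rgs9bp*. Of these, 9 had enough UMIs to be tested in E10-P56, against 11 for the adult library. Among the tested genes 0 were higher in either library and 3 and 1 were lower, the adult count being near the share over all genes. *Rgs7bp* was 1 of the 3 lower in E10-P56. *Rgs17* passed in both, at 0 (3 counts would be 2.42) and 1.76 CPM in pericytes against 8.02 and 8.97 in fibroblasts. *Rgs7bp*, which encodes a membrane anchor of RGS proteins, was at 271 CPM in E10-P56 smooth muscle cells against 0.808 in pericytes and 8.39 in fibroblasts, and was named after its values were seen.

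G protein subunits were higher in 9 of 25 and 9 of 27 tested genes and lower in 0 (medians of the log2 ratio 0.36 and 0.19), beside 11.2% and 9.38% higher and 9.11% and 8.53% lower over all genes. The beta subunit *Gnb4* was at 967 and 717 CPM in pericytes against 41.8 and 79.7 in fibroblasts. The gamma subunit *Gng11* was at 1636 and 2229 against 108 and 183. The alpha subunits *Gna14*, of the Gq class, and *Gnai1*, of the Gi class, were at 29.9 and 29.0 against 0.929 and 0.458, and at 76.7 and 78.2 against 10.6 and 3.85. *Gnai1* was higher still in tenocytes, at 177 and 130.

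Receptors were higher in 16 of 34 and 16 of 33 tested genes and lower in 5 and 7 (medians 0.32 and 0.81), beside the same shares over all genes. In order of the E10-P56 ratio the endothelin receptors came first: *Ednrb* was at 596 and 573 CPM in pericytes against 0.534 and 0.405 in fibroblasts, and *Ednra* at 286 and 231 against 4.69 and 7.18. In progenitor-like cells *Ednrb* was at 184 and 21.6, and *Ednra* at 244 and 327, the latter above adult pericytes. The list also holds *Adra2a*, a marker of the progenitor-like gate. The orphan receptors *Adgrf5* and *Gprc5c* were at 236 and 113 against 3.67 and 1.21, and at 95.3 and 129 against 0.116 and 0.317, so that the adult ratio of *Gprc5c* passed that of *Ednra*. Progenitor-like cells were at 288 and 108 for *Adgrf5* and at 35.45 and 28.7 for *Gprc5c*. Effectors were higher in 10 of 26 and 12 of 26 genes and lower in 3 of 26 in each (medians 0.76 and 0.66), the last count being near the 9.11% and 8.53% over all genes. The guanylate cyclase subunits *Gucy1a1* and *Gucy1b1*, the nitric oxide receptor, were at 1182 and 1484 against 8.30 and 3.64, and at 725 and 831 against 5.65 and 6.12. Smooth muscle cells were at 1073 and 1667 for *Gucy1a1* and at 279 and 373 for *Gucy1b1*, so high *Gucy1a1* was not particular to pericytes. *Kcnj8* and *Abcc9* headed that list in E10-P56 but define the pericyte gate. Both are among the effectors counted as higher in each library, so the gate set their calls in advance. Early response genes were lower in pericytes in 12 of 20 and 12 of 21 tested genes and higher in 0, beside 9.11% and 8.53% lower over all genes. *Atf3*, *Ier3*, *Junb* and *Egr1* had the lowest ratios in E10-P56 among those lower in both libraries, with *Egr1* at 170 and 352 CPM against 839 and 1389. The summed level of the 21 listed genes was 4556 and 6241 CPM in pericytes, against 8828 and 10789 in progenitor-like cells and 10419 and 13959 in fibroblasts. It was 11269 and 16598 in tenocytes and 9547 and 24441 in smooth muscle cells, so the adult smooth muscle cells had the highest sum of the 5 gated populations.

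**Figure D5:**
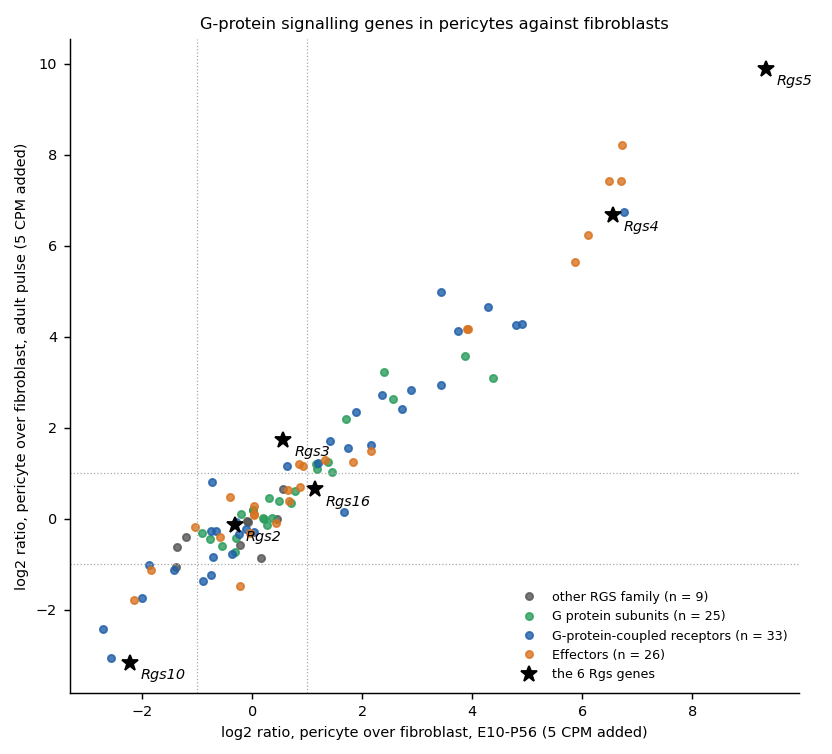
Log2 ratio of pericytes over fibroblasts (5 CPM added) in E10-P56 (horizontal) and the adult pulse (vertical) for the listed RGS, G protein, receptor and effector genes tested in both libraries (dots) and the 6 Rgs genes (stars); dotted lines mark 2-fold. *Rgs5* lies farthest out, at 9.34 and 9.88, and *Rgs10* lies at -2.22 and -3.16.

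The genes most like each member were sought among 12660 others over 8 points, the pericytes, progenitor-like cells, tenocytes and fibroblasts of both libraries, by Pearson's r of log2 levels. The points share libraries, and r is a description. For *Rgs5* they were *Notch3* (r = 0.998), itself a gate marker, the cyclase gene *Gucy1a1* (listed as *Gucy1a3*, 0.997) and the phosphodiesterase *Pde1b* (0.996). For *Rgs4* they were *Ate1* (0.995), *Ccdc141* (0.992) and *Ppfia2* (0.992), and for *Rgs2* *Sox6* (0.995), *Mboat2* (0.986) and *Plppr4* (0.984). For *Rgs16* they were *Stmn1* (0.980), *Sox4* (0.966) and *Marcksl1* (0.941), for *Rgs10* *Cxxc5* (0.989), *Wnt5a* (0.987) and *Tmem158* (0.983), and for *Rgs3* *Rarb* (0.943), *AI838599* (0.940) and *Gnl1* (0.936).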

How the data were processed

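Each library came as a gene by barcode matrix of raw UMI counts that the authors deposited; the labels name Cell Ranger and mm10. Matrix headers show Cell Ranger 5.0.0 in the case of E10-P56 and 3.0.2 in that of the adult pulse. The labels give the chemistry as 3′ version 2 or 3, without saying which library had which. The study's methods name version 3 for muscle collected at postnatal day 56, as in E10-P56, and leave that of the adult pulse unstated. E10-P56 held 67460919 UMIs and the adult pulse 69153173.

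Barcodes under 1500 UMIs or over 10% mitochondrial UMIs were left out. Gates counted markers with a UMI per cell: at least 6 of 9 for pericytes, 4 of 5 mural with 2 of 4 progenitor markers, 4 of 5 mural with 3 of 6 smooth muscle markers, 5 of 8 for tenocytes and 5 of 8 for fibroblasts, with limits on markers of the others. Cells passing more than 1 gate, or with over 2 markers of another listed cell type, were left out. The members and lists were chosen with earlier results of these data known. Counts were summed per population and given as CPM with exact Poisson intervals, ratios with exact conditional binomial intervals and shares with exact Clopper-Pearson intervals. Named list genes are up to 4 per list that passed 2-fold the same way in both libraries. They had the largest absolute log2 ratio of pericytes to fibroblasts in E10-P56, higher or lower. Scrublet, run in scanpy 1.11.5, marked 5 cells in each library, too few for its threshold to have worked, so no doublets were removed and an alternative leaves out the 5% highest scores. Clusters (leidenalg 0.10.2, 30 principal components, resolution 0.5) were an alternative. Scripts used numpy 2.4.6, scipy 1.17.1 and pandas 2.3.3, and were tested on simulated data. Positions are from GENCODE on GRCm38 and apply to this build, mm10, and promoters from RefSeq, where all 6 genes matched.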

Additional observations from a re-analysis of the deposited data

How the results depend on the processing

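Of 136 values recomputed under another setting, 104 stayed within their counting interval or within 1.5 times a count, 31 moved and 1 reversed. The log2 ratios to fibroblasts are given with E10-P56 first. Adding 1 CPM in place of 5 gave 6.77 and 6.45 for *Rgs2* in tenocytes (5.63 and 5.34), 2.21 for adult *Rgs3* in tenocytes (1.91), 7.11 and 8.11 for *Rgs4* in pericytes (6.55 and 6.68), 9.63 and 10.4 for *Rgs5* in pericytes (9.34 and 9.88), -2.92 and -4.36 for *Rgs10* in pericytes (-2.22 and -3.16) and 7.13 and 5.76 for *Rgs16* in progenitor-like cells (5.56 and 4.23). The stricter gate gave 5.89 for E10-P56 *Rgs2*, 6.74 and 6.87 for *Rgs4*, 9.44 for E10-P56 *Rgs5*, -3.61 for adult *Rgs10* and 5.92 and 4.95 for *Rgs16*. Thinning to 1500 UMIs before gating gave 2.14 for E10-P56 *Rgs3*, 6.78 for E10-P56 *Rgs4*, 8.30 and 9.05 for *Rgs5* and 5.03 and -0.173 for *Rgs16*; that last value rests on 10 adult cells with 0 UMIs. Clusters gave 8.53 and 9.01 for *Rgs5* and -2.01 for adult *Rgs10*. Cells without an early response UMI gave 6.89 for E10-P56 *Rgs4* and 4.60 and 2.65 for *Rgs16*. Means of each cell's CPM gave 6.73 and 8.83 for E10-P56 *Rgs4* and *Rgs5*. The causes of these moves and of the reversal were not tested. Asking for 50 UMIs moved no list count by over 1.5 times. Of 24 shares at another depth, 19 moved. No paired analysis was possible because each labelling scheme has 1 library, and none could be left out. The adult progenitor-like and smooth muscle cells, 48 and 11, limit what depth can show there.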
